A study of Mus musculus with 8 samples.

Results

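The comparison set all 4 treated samples of RNA-seq data from EO771, a breast cancer line of the mouse, against all 4 control samples, in order to find which gene functions and families a lipid mediator and an RNA-editing enzyme changed together, beyond the interferon-stimulated genes. It used 8 of the 8 samples in the count table, and 6901 of its 49997 genes averaged at least 10 counts per sample and were tested. The first experiment held 2 vehicle samples (2% DMSO in saline) and 2 samples treated with 100 nM 12-HETE for 48 h. The second held 2 samples of cells transduced with an empty vector and 2 of cells transduced with an ADAR1 p150 overexpression vector. All 4 groups were the same cell line, no sample carried both treatments, and no transduction is named for the vehicle and 12-HETE samples. The promoter of the vectors, and whether the transduced cells were a clone or a pool, are not given in the sources used here. The labels do not say whether the replicates of a group were separate cultures, while the study describes its editing analysis of the same conditions as made on independent experiments. The p-values measure the spread between these samples.

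12-HETE is a product of arachidonic acid made by the enzyme 12-lipoxygenase. ADAR1 is an enzyme that changes adenosine to inosine in double-stranded RNA, and its interferon-inducible p150 form acts largely in the cytoplasm, where edited RNA is less well recognised by sensors of double-stranded RNA. Much of the account below returns to the integrated stress response. In it, kinases that sense amino acid shortage, endoplasmic reticulum stress, haem shortage or double-stranded RNA phosphorylate the initiation factor eIF2. The transcription factor ATF4 then raises genes for amino acid transport, amino acid synthesis and tRNA charging.

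Total counts were between 1353124 and 1537037 in the treated samples and between 1101767 and 1201351 in the controls, so every treated sample was deeper than every control. A single gene, AY036118, took between 44.4% and 50.3% of the counts of a sample. At these depths 3 counts corresponded to 2.11 to 2.74 CPM (counts scaled to a common library size after TMM), a limit for counting error only. The mean chi-square per gene between replicates was 1.39 to 1.71, above sampling noise, and 8 genes differed between vector and vehicle samples at an adjusted p under 0.05. Of 13 mammary epithelial marker genes, 7 passed the count minimum, their summed level was 240 to 406 CPM in the controls and 271 to 350 CPM in the treated samples, the highest being Krt8, and Cdh1 was at 0 in every sample. Markers of other cells were low: 1 of 10 fibroblast genes was tested (9.13 to 30.6 CPM in the controls and 25.7 to 42.2 CPM in the treated samples, with Col1a2, Fap, Lum and Postn at 0), 1 of 12 leukocyte genes (39.8 to 45.4 and 20.7 to 42.9 CPM, with Adgre1, Cd3d, Cd3e and Ncr1 at 0) and 0 of 9 endothelial genes (5.48 to 8.56 and 0.766 to 10.6 CPM, with Chst4, Emcn and Glycam1 at 0). In bulk RNA, fewer cells of a type and less RNA per cell cannot be told apart.

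A property of the counts bears on every gene named here. Where a coding and a non-coding gene share a stretch on opposite strands and both were tested, which was so for 656 pairs with at least 50 bases in common, more counts fell on the non-coding gene in 517 pairs (78.8%). The strand option used for counting is not stated in the sources at hand. Counts listed for a gene may thus come from the other strand. Opposite-strand genes are called partners here, and their own values are given for some of the genes named. A partner was present for 3849 of the 6901 genes.

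Adar itself, the gene of the overexpressed enzyme, had 5 and 5 counts in the vehicle pair, 7 and 6 in the 12-HETE pair, 2 and 8 in the vector pair and 181 and 140 in the ADAR1 p150 pair. Only the samples with the ADAR1 p150 vector were high, and the 12-HETE samples lay within the range of the controls. The log2 fold change was 4.68 in the ADAR1 p150 experiment (adjusted p = 6.4e-14) and 0.18 in the 12-HETE experiment (adjusted p = 0.855), so that the pooled value of 3.48 belonged to a single experiment. The p150 and p110 forms are not separated in these counts.

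Across all genes, the treated samples differed from the controls in 690 genes, by at least 2-fold and with an adjusted p under 0.05 (edgeR's quasi-likelihood test, experiment as a block). Of the 6901 genes, 356 (5.16%) were higher and 334 (4.84%) were lower. With the adjusted p alone, 851 genes (12.3%) were higher and 703 (10.2%) were lower, 1554 in all (22.5%), and these shares are the background for each gene list below. In 774 genes (11.2%) all 4 treated samples lay above all 4 controls, and in 719 (10.4%) they lay below. The median log2 fold change over all genes was 0.07 in the pooled test, 0.00 for 12-HETE and 0.07 for ADAR1 p150.

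Interferon-stimulated genes were few among these changes, 19 of the 690 genes and 26 of the 1554, and only 34 were tested. Of those 34, 76.5% passed the adjusted p, beside 22.5% of all genes. Of the 34 interferon-stimulated genes tested, 22 were lower and 4 higher, and the median log2 fold change was -1.06 in the pooled test, -1.21 after 12-HETE and -0.81 under ADAR1 p150. Oas3, which makes the oligoadenylate that activates RNase L, had 29 and 43 counts in the vehicle pair, 0 and 1 in the 12-HETE pair, 26 and 37 in the vector pair and 1 and 0 in the ADAR1 p150 pair. Oasl2, of the same family, fell by 3.66 on the log2 scale (SE 0.31), Ifi27 by 3.35 (SE 0.34) and Ifi27l2a by 2.36 (SE 0.20). The remaining 671 of the 690 genes were not on that list, and they are the subject of the account below.

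Of the 690 genes, 678 (98.3%) had the same sign in both experiments and 417 passed the adjusted p in each experiment with the same sign. The pooled test chose these genes, so the share with the same sign is a description. In 575 (83.3%) all 4 treated samples lay outside the range of the controls. The size of the 2 effects differed (adjusted p of the interaction under 0.05) in 130 of the 690 genes, beside 1033 of all genes (15.0%). The plot of the effects in both experiments shows the genes called in the pooled test on either side of 0 together with those that moved with a single treatment.

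**Figure D1:**
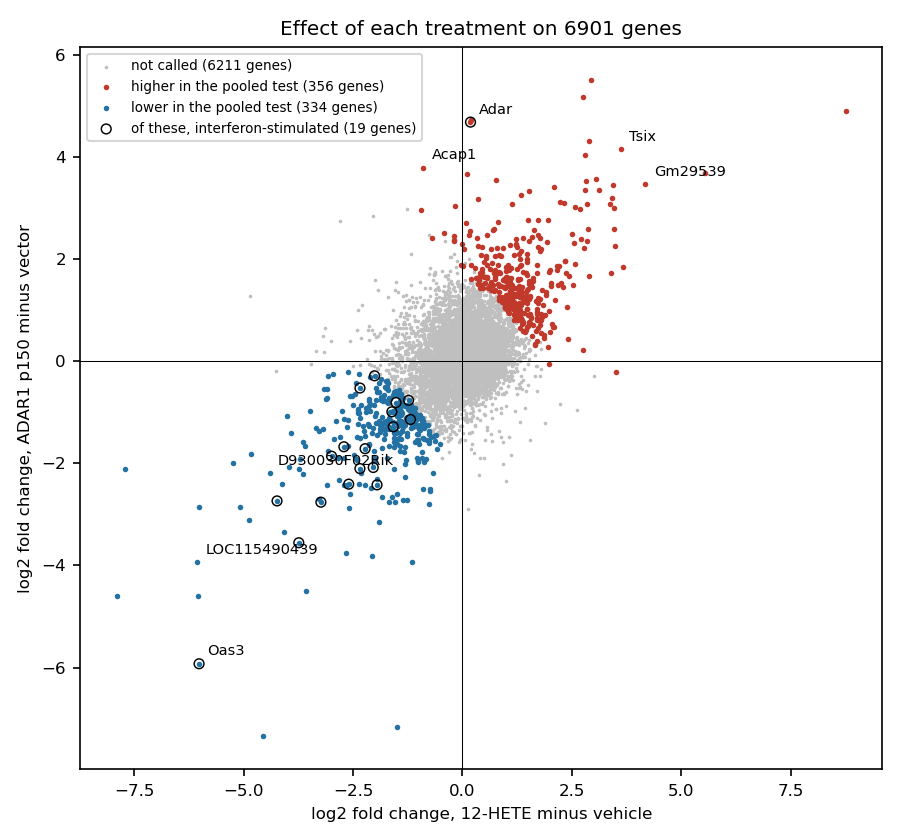
Log2 fold change of 12-HETE against vehicle (horizontal) and of ADAR1 p150 against vector (vertical) for 6901 genes, with genes called in the pooled test in red (356 higher) and blue (334 lower), and the 19 interferon-stimulated genes among them circled. Most called genes lie in the upper right or lower left, whereas Adar (0.18 and 4.68) and Acap1 (-0.89 and 3.79) lie beside the vertical axis.

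The strongest shared changes outside the interferon-stimulated genes were sought among 161 called genes that averaged at least 50 counts and had all 4 treated samples outside the controls' range (77 higher and 84 lower). Of the 12 highest, 9 were non-coding RNAs or pseudogenes and 3 were protein-coding, and 8 had a partner on the opposite strand. Of the 12 lowest, 8 were non-coding and 4 were protein-coding, and 10 had a partner. Among the lowest, 7 differed in size between the treatments at an adjusted p under 0.05, and among the highest 2 did.

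Tsix, the antisense RNA that represses Xist in early embryonic cells, was the highest. It had 102 and 90 counts in the vehicle pair, 1292 and 1398 in the 12-HETE pair, 80 and 85 in the vector pair and 1811 and 1779 in the ADAR1 p150 pair, so both treatments lay far above their controls and ADAR1 p150 above 12-HETE. The mean was 77.3 CPM ± 6.7 in the controls and 1153 CPM ± 193 in the treated samples (SD, n = 4 each), a log2 fold change of 3.88 (SE 0.14, adjusted p = 7.21e-11, edgeR). The difference between both effects was 0.53 (adjusted p = 0.0429). Xist, the RNA that coats the inactive X chromosome and Tsix's partner, had 6 and 3, 43 and 37, 0 and 1, and 42 and 26 counts in the same order, a log2 fold change of 3.62 (SE 0.42, adjusted p = 1.81e-05). Xist and Tsix rose together, and their reads cannot be told apart where the strand setting of the counting is unknown. They lie on chromosome X of GRCm38, Tsix from 103431517 to 103484957 and Xist from 103460373 to 103483233.

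Gm29539, a long non-coding RNA on chromosome 1, had 5 and 10 counts in the vehicle pair, 163 and 152 in the 12-HETE pair, 7 and 6 in the vector pair and 92 and 86 in the ADAR1 p150 pair (log2 fold change 3.87, SE 0.23, adjusted p = 1.54e-08). Its partner Wnt6, a ligand gene, had at most 6 counts in any sample. Ush1g, which encodes a scaffold protein of inner ear hair cells, had 8 and 10, 76 and 69, 7 and 13, and 182 and 221 counts (log2 fold change 3.51, SE 0.26). Both were low in every control and rose with both treatments.

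The next genes were Gm52421 on chromosome X (3.22), Gm39008 (3.22), Gm52209 (3.21), LOC667541 (3.09), Rbpj-ps2 (2.91) and Gm22146 (2.15), given as log2 fold changes with SEs between 0.16 and 0.27. Gm52421 lies opposite Pnma5, which also rose (log2 fold change 2.13, adjusted p = 0.00115, edgeR). Pnma5 had 3 and 4 counts in the vehicle pair and 12 and 16 in the 12-HETE pair. In the vector pair Pnma5 had 1 and 6 counts, and in the ADAR1 p150 pair 24 and 23. Gm22146 overlaps Fkbp5, a co-chaperone of steroid receptors, which had 6 and 8 counts in the vehicle pair, 25 and 34 in the 12-HETE pair, 6 and 6 in the vector pair and 12 and 9 in the ADAR1 p150 pair (log2 fold change 1.33, adjusted p = 0.0119). That adjusted p was 0.0581 without vehicle replicate 4, 0.0601 without vehicle replicate 5 and 0.0595 without 12-HETE replicate 5. Islr, a secreted leucine-rich repeat protein with no partner in the table, had 34 and 33 counts in the vehicle pair, 140 and 113 in the 12-HETE pair, 22 and 19 in the vector pair and 135 and 145 in the ADAR1 p150 pair (log2 fold change 2.07, SE 0.19, adjusted p = 1.55e-06). 1700020L24Rik (2.04) and Gm51913 (2.01) lie next to each other on chromosome 11, from 83437694 to 83441232 and from 83444336 to 83450294, and both overlap Mmp28, which had at most 12 counts in any sample. Those neighbours cannot be counted as separate evidence.

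LOC115490439, a non-coding RNA on chromosome 6 opposite Gsg1, was the lowest. It had 161 and 149 counts in the vehicle pair, 2 and 3 in the 12-HETE pair, 125 and 180 in the vector pair and 12 and 12 in the ADAR1 p150 pair, a log2 fold change of -4.65 (SE 0.29, adjusted p = 2.47e-08). D930030F02Rik, opposite the chloride channel gene Ano1, had 389 and 360, 19 and 21, 403 and 360, and 111 and 93 counts (log2 fold change -3.07, SE 0.30). Both fell with both treatments and further with 12-HETE, with log2 fold changes of -6.07 against -3.94 for LOC115490439 (adjusted p of the difference 0.0142) and of -4.41 against -2.20 for D930030F02Rik (adjusted p of the difference 1.01e-07). The partners Gsg1 and Ano1 were under the count minimum. In the same order of pairs, Gsg1 had 8 and 2, 0 and 0, 5 and 6, and 0 and 1 counts. Ano1 had 21 and 16, 0 and 0, 9 and 13, and 5 and 3 counts.

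Gm44148, the next lowest, had 1306 and 1191 counts in the vehicle pair, 179 and 157 in the 12-HETE pair, 1318 and 1294 in the vector pair and 281 and 311 in the ADAR1 p150 pair (log2 fold change -2.75, SE 0.14). It lies opposite Usp18, an interferon-stimulated gene that removes ISG15 from proteins, and Usp18 had 22 and 21, 28 and 35, 20 and 21, and 48 and 44 counts. Usp18 thus had a log2 fold change of 0.62 (adjusted p = 0.0497), opposite in sign to that of its partner, and its adjusted p was 0.0533 to 0.134 when any 1 sample other than 12-HETE replicate 4 was left out. Gm36043 (-2.13) lies opposite Cd274, which encodes the immune checkpoint ligand of the receptor Pdcd1. Cd274 had 55 and 57 counts in the vehicle pair, 4 and 9 in the 12-HETE pair, 54 and 65 in the vector pair and 36 and 20 in the ADAR1 p150 pair (log2 fold change -2.07, SE 0.32, adjusted p = 0.000224), with a larger fall after 12-HETE (-3.27) than with ADAR1 p150 (-1.38, adjusted p of the difference 0.00546). A930037H05Rik, opposite the interferon-stimulated gene Rnf213, fell by 1.55 (SE 0.12), and Rnf213 fell by 1.17 (adjusted p = 0.000224). Some of the largest shared decreases among genes not listed as interferon-stimulated had an interferon-stimulated gene on the other strand.

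Mars1, the methionyl-tRNA synthetase, and Mbd6, which encodes a protein with a methyl-CpG-binding domain, are neighbours on chromosome 10. Mars1 had 267 and 326 counts in the vehicle pair, 67 and 65 in the 12-HETE pair, 313 and 312 in the vector pair and 65 and 79 in the ADAR1 p150 pair (log2 fold change -2.38, SE 0.14). Mbd6 had 299 and 302, 75 and 62, 345 and 335, and 90 and 93 counts (log2 fold change -2.25, SE 0.13). The treated samples formed a tight group in both genes, and the 2 treatments did not differ by the test of the interaction (adjusted p = 0.912 for Mars1 and 0.722 for Mbd6). Both overlap Ddit3, the stress transcription factor CHOP, whose gene fills the gap between them on the other strand. Mbd6 runs from 127281956 to 127290869, Ddit3 from 127290793 to 127296291, and Mars1 from 127296221 to 127311786. Ddit3 had 230 and 217 counts in the vehicle pair, 216 and 192 in the 12-HETE pair, 239 and 232 in the vector pair and 90 and 115 in the ADAR1 p150 pair, so it was clearly lower with ADAR1 p150 alone (log2 fold change -1.49 against -0.32 with 12-HETE, adjusted p of the difference 6.19e-05). The 3 genes are a single locus and are not independent.

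The other genes among the 12 lowest were Krtap5-5 (-2.57), a keratin-associated protein of hair, Trpm1 (-2.38), a cation channel of the retina, and the non-coding RNAs 8030451A03Rik (-2.27), Gm51705 (-1.96), Gm51915 (-1.83) and 1700034H15Rik (-1.75). Krtap5-5 and Trpm1 fell further with 12-HETE than with ADAR1 p150 (adjusted p of the difference 0.000799 and 0.00123), and 1700034H15Rik fell further with ADAR1 p150 (adjusted p of the difference 0.0294). The heat map of the leading genes shows that the 4 controls of each gene were close together and that the treated samples split by treatment in several genes.

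**Figure D2:**
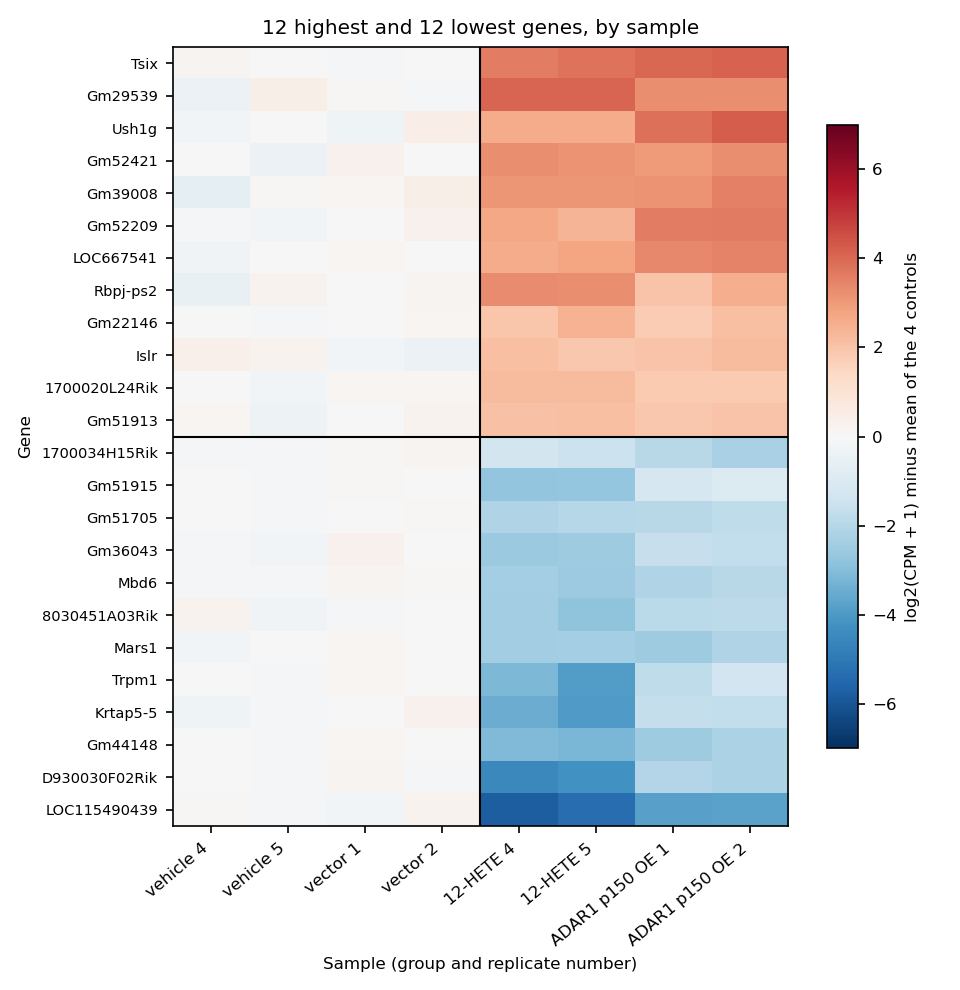
Log2(CPM + 1) of the 12 highest and 12 lowest genes in each of the 8 samples, as the difference from the mean of the 4 controls. Tsix is the highest (pooled log2 fold change 3.88) and LOC115490439 the lowest (-4.65), with lower values after 12-HETE than with ADAR1 p150.

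Functions were then read through 89 lists of genes, of which 76 had at least 10 members tested. Among 73 lists of a function or family, 17 had a larger share of members past the adjusted p than the 22.5% of all genes and 56 had a smaller share. Protein-coding genes alone had a share of 19.1%. A list between 19.1% and 22.5% was thus below the share of all genes but not below that of coding genes. The plot of list shares is ordered by the share of lower members, so lists that moved mostly down stand at its top by construction. The first were the interferon-stimulated genes (26 of 34 past the adjusted p) and the integrated stress response (14 of 29). With the transcript classes included, 20 lists lay above the share of all genes, and 10 of them had more lower than higher members. Lists are given by counts and medians only, because members of a list are not replicates and share samples.

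**Figure D3:**
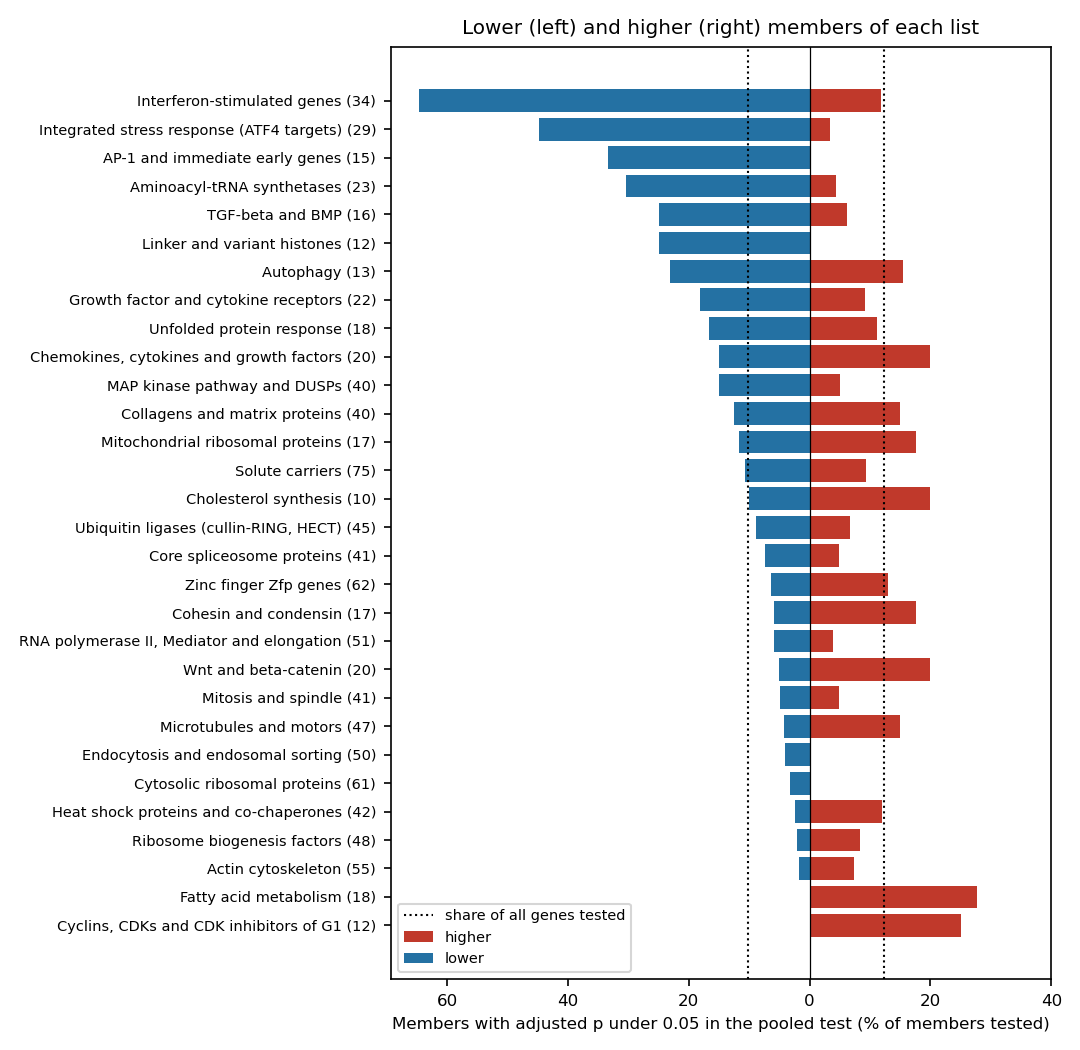
Share of tested members with an adjusted p under 0.05 in the pooled test that were lower (left) or higher (right), for 30 lists with the number tested in brackets, and dotted lines at the shares of all genes (10.2% lower and 12.3% higher). The lists shown are the 17 above 22.5% and the 13 of the others with the most members tested.

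The integrated stress response list was lower in the treated samples. Of the 29 members tested, 13 were lower and 1 was higher, in 24 the fold change was negative, and in 8 all 4 treated samples lay below all 4 controls. The median log2 fold change was -0.68 in the pooled test, -0.51 with 12-HETE and -0.79 with ADAR1 p150, and -0.59 after the median of each member's chromosome was subtracted. Among the 19 members without an opposite-strand partner, 8 were lower and 0 were higher, with a median of -0.68 (a readout chosen after seeing the data). The median was -0.28 among members with at least 10 counts in every sample.

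ATF4 and its relatives recognise the C/EBP-ATF response element, TGATGNAA. It was searched on both strands of the RefSeq promoter windows of GRCm38.p6, which reach from 250 bases before to 50 bases after a gene's start. It was found in 7 of the 22 list members that were tested and had a window (31.8%), beside 3.97% of 32851 promoters and 3.09% of the 5173 tested genes with a window. The list is one of ATF4 targets, so a larger share than in all promoters follows from how it was made and is no result of these data. Of the 9 members with a window that fell, 2 had the element, and of the 12 that did not pass the test, 5 had it. The 150 bases before the start are shown for 5 of these 7 members, to show where it lies, with the element in capitals in the gene's direction. Jdp2 (chr12:85599266-85599415, plus strand) and Aars (chr8:111033692-111033841, plus strand) fell, whereas Asns (chr6:7693210-7693359, minus strand), Gars (chr6:55037851-55038000, plus strand) and Tars (chr15:11399659-11399808, minus strand) did not pass the test.
Jdp2: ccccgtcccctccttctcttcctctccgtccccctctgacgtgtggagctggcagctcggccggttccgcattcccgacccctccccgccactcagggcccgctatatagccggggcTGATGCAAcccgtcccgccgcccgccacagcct
Aars: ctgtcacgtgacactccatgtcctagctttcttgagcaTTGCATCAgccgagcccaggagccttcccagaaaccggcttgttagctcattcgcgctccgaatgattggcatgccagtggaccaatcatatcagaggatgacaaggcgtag
Asns: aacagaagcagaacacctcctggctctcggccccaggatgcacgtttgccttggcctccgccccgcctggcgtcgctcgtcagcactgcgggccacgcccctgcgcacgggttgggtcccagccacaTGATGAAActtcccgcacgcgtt
Gars: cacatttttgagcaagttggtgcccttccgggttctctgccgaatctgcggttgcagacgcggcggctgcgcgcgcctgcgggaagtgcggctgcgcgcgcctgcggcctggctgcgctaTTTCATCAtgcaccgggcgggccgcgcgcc
Tars: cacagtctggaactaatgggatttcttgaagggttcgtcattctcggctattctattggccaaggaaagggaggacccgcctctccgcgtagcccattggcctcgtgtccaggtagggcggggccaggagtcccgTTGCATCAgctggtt

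In Asns, the asparagine synthetase gene, the element starts 23 bases before the start of the gene, and in Tars, a threonyl-tRNA synthetase, it starts 15 bases before. Asns had 11 and 20 counts in the vehicle pair, 16 and 8 in the 12-HETE pair, 8 and 19 in the vector pair and 7 and 12 in the ADAR1 p150 pair, values that overlapped between the groups (log2 fold change -0.66, SE 0.36, adjusted p = 0.202). Gars and Tars had log2 fold changes of -0.26 (adjusted p = 0.36) and -0.16 (adjusted p = 0.635). These 3 genes were named for their promoters, after their values were seen.

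Cebpb, a partner of ATF4, had 77 and 68 counts in the vehicle pair, 28 and 28 in the 12-HETE pair, 74 and 59 in the vector pair and 33 and 28 in the ADAR1 p150 pair. All treated samples lay below all controls, with a mean of 21.4 CPM ± 1.34 against 60.4 CPM ± 7.65 (SD, n = 4) and a log2 fold change of -1.49 (SE 0.18, adjusted p = 2.47e-05). Jdp2, a repressor that pairs with the same family of factors, had 35 and 41, 14 and 12, 34 and 40, and 19 and 19 counts (log2 fold change -1.47, SE 0.22). Atf4 itself had 40 and 56, 36 and 23, 29 and 37, and 9 and 5 counts (log2 fold change -1.48, SE 0.30, adjusted p = 0.00241). It fell more with ADAR1 p150 (-2.51) than with 12-HETE (-0.89, adjusted p of the difference 0.022).

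Gdf15, a secreted stress cytokine, had 24 and 31 counts in the vehicle pair, 7 and 8 in the 12-HETE pair, 18 and 25 in the vector pair and 10 and 11 in the ADAR1 p150 pair (log2 fold change -1.67, SE 0.28). Slc3a2, the heavy chain of heteromeric amino acid exchangers, had 48 and 50, 34 and 18, 38 and 43, and 23 and 37 counts (log2 fold change -0.91, SE 0.23, adjusted p = 0.00978). Slc38a2, a sodium-coupled carrier of neutral amino acids that leads the list of solute carriers, had 141 and 152 counts in the vehicle pair, 59 and 74 in the 12-HETE pair, 101 and 123 in the vector pair and 45 and 35 in the ADAR1 p150 pair (log2 fold change -1.53, SE 0.17, adjusted p = 9.31e-06). Solute carriers as a whole shared no direction: of 75 tested, 7 were higher and 8 lower. The member that was higher was Eif2ak1, the haem-regulated eIF2 kinase, with 61 and 76 counts in the vehicle pair, 168 and 132 in the 12-HETE pair, 63 and 86 in the vector pair and 102 and 94 in the ADAR1 p150 pair. Its log2 fold change was 0.53 in the pooled test (adjusted p = 0.0496), 0.94 after 12-HETE (adjusted p = 6.52e-05) and 0.10 under ADAR1 p150 (adjusted p = 0.738), where the effects differed (adjusted p of the difference 0.0205). The pooled adjusted p was 0.0829 to 0.182 when either vehicle sample, either 12-HETE sample or vector replicate 1 was left out.

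**Figure D4:**
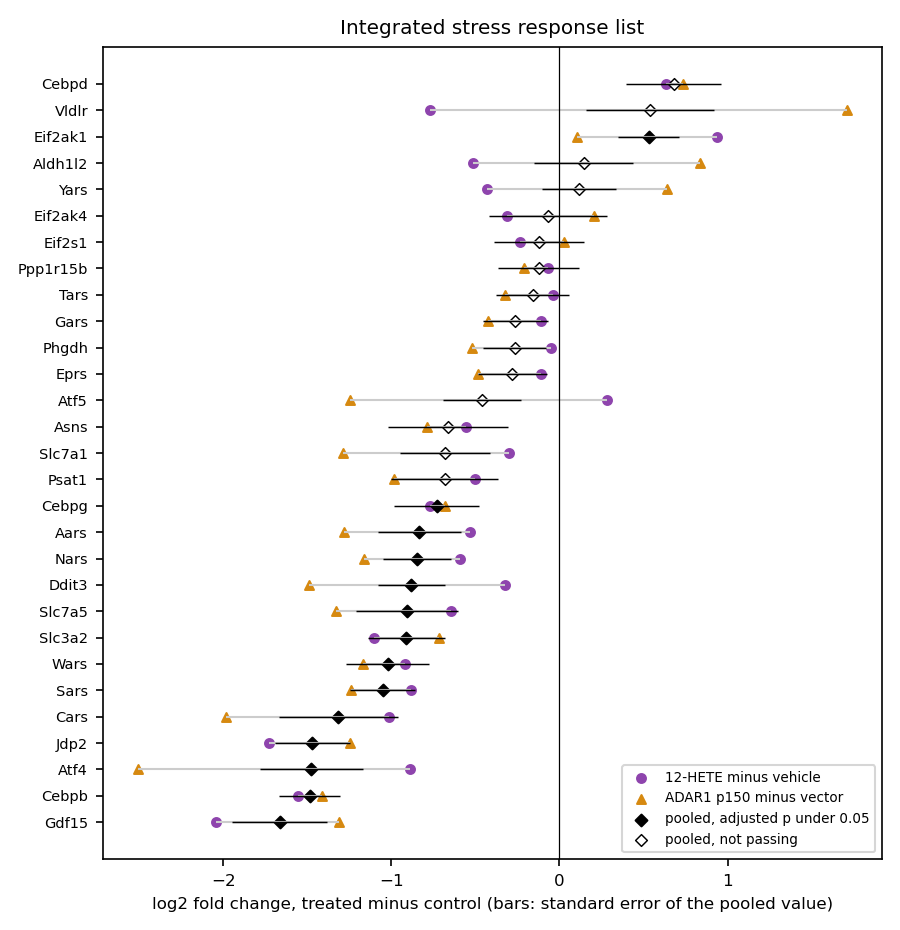
Log2 fold change of the 29 tested members of the integrated stress response list in the pooled test (diamonds, with SE; filled where the adjusted p was under 0.05) and in each experiment (circles, 12-HETE; triangles, ADAR1 p150). 24 of the 29 pooled values lie below 0, and Atf4 and Ddit3 lie further below it with ADAR1 p150 than with 12-HETE.

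Most tested genes opposite the stress response genes were lower. The list had 8 tested partners, of which 7 were lower and 0 higher, with a median of -1.11. Mars1 and Mbd6 are among them, and both lie opposite Ddit3, which was clearly lower with ADAR1 p150 alone. The pattern was not particular to this list. Of 18 tested partners of the interferon-stimulated genes, 12 were lower and 0 higher, with a median of -1.10. Gm45095, opposite the ATF4 partner Cebpg, had 291 and 298 counts in the vehicle pair, 178 and 171 in the 12-HETE pair, 304 and 290 in the vector pair and 154 and 150 in the ADAR1 p150 pair (log2 fold change -1.10, SE 0.12, adjusted p = 1.25e-05). Cebpg itself had 22 and 23, 14 and 16, 13 and 16, and 11 and 11 counts (log2 fold change -0.73, adjusted p = 0.0496, and 0.0708 to 0.14 when any 1 sample was left out). Gm15580, opposite the cysteinyl-tRNA synthetase gene Cars, fell by 1.15 (SE 0.22), Ddx19b, opposite Aars, by 1.13 (SE 0.29), and Tulp2, opposite Ppp1r15a, a phosphatase subunit that ends the response and was itself under the count minimum, by 0.83 (SE 0.16). Ankrd61, opposite Eif2ak1, was the exception, with 34 and 34, 32 and 37, 39 and 44, and 41 and 50 counts (log2 fold change -0.16, adjusted p = 0.581). The partners were named after their values were seen, and whether a gene and its partner share reads was not tested.

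Aminoacyl-tRNA synthetases, which charge tRNAs and overlap the stress response list, had 23 members tested, of which 7 were lower and 1 higher, with a median of -0.26 (-0.22 with 12-HETE, -0.40 with ADAR1 p150 and -0.29 less the chromosome medians). Beyond Mars1, Sars (seryl-tRNA) had 84 and 79 counts in the vehicle pair, 57 and 44 in the 12-HETE pair, 60 and 75 in the vector pair and 46 and 24 in the ADAR1 p150 pair (log2 fold change -1.05, SE 0.19, adjusted p = 0.00107). Wars (tryptophanyl-tRNA) fell by 1.02 (SE 0.25) and Nars (asparaginyl-tRNA) by 0.85 (SE 0.20). Aars (alanyl-tRNA) had 31 and 53, 34 and 32, 24 and 28, and 13 and 13 counts, and its groups overlapped (log2 fold change -0.83, SE 0.25, adjusted p = 0.0232). The adjusted p of Aars was 0.0693 without vehicle replicate 5, 0.0663 without vector replicate 2, 0.0628 without ADAR1 p150 replicate 1 and 0.0547 without ADAR1 p150 replicate 2. Where members had no partner, 2 of 15 were lower and 1 was higher, close to the background.

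Related stress programmes showed no shared direction. Of 18 unfolded protein response genes, 3 were lower and 2 higher (27.8%), with a median of 0.22. Atf6b, a membrane-bound sensor of endoplasmic reticulum stress, fell by 1.62 (SE 0.33, adjusted p = 0.00221) at at most 17 counts a sample. Of 13 autophagy genes, 3 were lower and 2 higher (38.5%). Sqstm1, the autophagy receptor, had 137 and 189 counts in the vehicle pair, 49 and 55 in the 12-HETE pair, 121 and 123 in the vector pair and 66 and 61 in the ADAR1 p150 pair (log2 fold change -1.53, SE 0.17, adjusted p = 1.23e-05), and Tecpr1, a tether of autophagosomes and lysosomes, fell by 1.18 (SE 0.23). In both genes every treated sample lay below every control. Heat shock proteins and co-chaperones (5 higher and 1 lower of 42) and the oxidative stress genes (3 higher and 0 lower of 23) were under the background share.

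AP-1 and immediate early genes, which cells switch on within minutes of growth factor or stress signals, were lower, with the larger median after 12-HETE. Of the 15 tested, 5 were lower and 0 were higher, with a median of -0.73 in the pooled test, -0.86 with 12-HETE, -0.36 with ADAR1 p150 and -0.79 less the chromosome medians, and it was -0.45 among members with at least 10 counts in every sample. In 7 of the 15 all treated samples lay below all controls. Klf6, a zinc finger factor, had 68 and 100 counts in the vehicle pair, 48 and 32 in the 12-HETE pair, 51 and 60 in the vector pair and 26 and 23 in the ADAR1 p150 pair (log2 fold change -1.35, SE 0.19, adjusted p = 0.000119). Myc had 26 and 42, 11 and 5, 21 and 24, and 8 and 13 counts (log2 fold change -1.82, SE 0.31) and Junb had 36 and 56, 23 and 22, 36 and 32, and 31 and 14 counts (log2 fold change -1.06, SE 0.25). Ccdc85b, a coiled-coil protein, had 1023 and 967, 625 and 581, 1144 and 1142, and 378 and 374 counts (log2 fold change -1.40, SE 0.16). It overlaps Fosl1, an AP-1 subunit that had at most 39 counts in any sample and a log2 fold change of -0.22 (adjusted p = 0.509).

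Signalling lists held changes in both directions. Of 16 TGF-beta and BMP genes, 4 were lower and 1 higher (31.2%), with a median of -0.42 (-0.49 with 12-HETE and -0.11 with ADAR1 p150). Tgif1, a co-repressor of SMAD factors, had 32 and 49, 30 and 23, 38 and 45, and 23 and 22 counts (log2 fold change -0.98, SE 0.21), and Smurf1, a ubiquitin ligase of the pathway, fell by 0.97 (SE 0.25).

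Among 22 growth factor and cytokine receptors, 4 were lower and 2 higher (27.3%). Axl, a receptor tyrosine kinase, had 48 and 63 counts in the vehicle pair, 10 and 12 in the 12-HETE pair, 39 and 47 in the vector pair and 33 and 25 in the ADAR1 p150 pair (log2 fold change -1.57, SE 0.29), again with a larger fall after 12-HETE (-2.51 against -0.86, adjusted p of the difference 0.00583). Igf2r, a receptor that sorts lysosomal enzymes and clears IGF2, had 71 and 82, 133 and 122, 80 and 81, and 222 and 182 counts and rose by 0.80 (SE 0.15). Among 20 chemokines, cytokines and growth factors, 4 were higher and 3 lower (35.0%). The semaphorins Sema4c (log2 fold change 1.93, SE 0.39) and Sema3c (1.05, SE 0.27) rose, Il17d fell by 1.09 (SE 0.26), and Il27, at 69 and 90, 156 and 149, 101 and 103, and 161 and 168 counts, rose by 0.57 (SE 0.14).

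Of 40 collagens and other matrix proteins tested, 6 were higher and 5 lower (27.5%). Col14a1, a fibril-associated collagen, had 6 and 7 counts in the vehicle pair, 23 and 20 in the 12-HETE pair, 4 and 1 in the vector pair and 38 and 26 in the ADAR1 p150 pair (log2 fold change 2.29, SE 0.38). Vcan, the proteoglycan versican, had 6 and 4, 14 and 18, 7 and 3, and 20 and 28 counts (log2 fold change 1.72, SE 0.35). In both genes all treated samples lay above the controls' range. The fibroblast markers, whose summed level was 25.7 to 42.2 CPM in the treated samples and 9.13 to 30.6 CPM in the controls, overlapped between treated samples and controls, and their part in these values was not tested.

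Some genes of lipid metabolism rose, while the share of fatty acid genes past the test in either direction was near the 22.5% of all genes. Of 18 fatty acid genes, 5 were higher and 0 lower (27.8%). The medians were 0.16 in the pooled test, 0.35 with 12-HETE, -0.15 with ADAR1 p150 and 0.06 less the chromosome medians. Scd2, a stearoyl-CoA desaturase, had 42 and 62 counts in the vehicle pair, 187 and 141 in the 12-HETE pair, 24 and 33 in the vector pair and 106 and 63 in the ADAR1 p150 pair (log2 fold change 1.38, SE 0.19, adjusted p = 0.00011). Scd1 had 7 and 15, 38 and 35, 6 and 4, and 20 and 17 counts (log2 fold change 1.55, SE 0.29). These desaturase genes are close paralogs, and reads could be split between them. Acsl1, which activates long-chain fatty acids, rose by 1.41 (SE 0.34). Of 10 cholesterol synthesis genes, 2 were higher and 1 was lower (30.0%).

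Of 20 Wnt and beta-catenin genes, 4 were higher and 1 was lower (25.0%). Nkd1 and Axin2, which are induced by the pathway and dampen it, rose. Nkd1 had 5 and 5 counts in the vehicle pair, 27 and 31 in the 12-HETE pair, 1 and 1 in the vector pair and 10 and 13 in the ADAR1 p150 pair (log2 fold change 2.52, SE 0.36, adjusted p = 0.000125), and Axin2 had 28 and 38, 64 and 62, 21 and 30, and 78 and 63 counts (log2 fold change 0.95, SE 0.19). Of the transcription factors of the pathway, Tcf7 rose by 0.72 (SE 0.16) and Tcf7l2 fell by 1.17 (SE 0.24). The list's median, 0.11, was close to that of all genes.

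Among 12 cyclins and their kinases and inhibitors, 3 were higher and 0 lower (25.0%). LTO1, which overlaps the end of the cyclin gene Ccnd1, was among the most abundant genes that changed, with 1204 and 1180 counts in the vehicle pair, 3533 and 3565 in the 12-HETE pair, 1090 and 1181 in the vector pair and 3077 and 3122 in the ADAR1 p150 pair (log2 fold change 1.27, SE 0.10, adjusted p = 5.15e-07). Ccnd1 had 32 and 43, 71 and 73, 33 and 40, and 64 and 56 counts. Both were higher in every treated sample than in every control (LTO1 was chosen after its values were seen). Of 47 microtubule and motor genes, 7 were higher and 2 lower (19.1%). That was under the share of all genes and equal to the 19.1% of protein-coding genes. Dync1h1, the dynein heavy chain, fell by 1.09 (SE 0.17), its partner Gm35558 by 0.72 (adjusted p = 0.00012), and Kif4 (1.93, SE 0.33), a chromokinesin on chromosome X, Kif24 (0.95, SE 0.18), a kinesin of centrioles, and Tuba1c (1.18, SE 0.23), a tubulin with near-identical copies, rose.

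Many lists of housekeeping functions had a smaller share of members past the test than all genes had. Of 61 cytosolic ribosomal protein genes, 2 were lower and 0 higher (3.28%, median -0.11), and of 39 SR and hnRNP splicing factors 1 was higher and 0 lower (2.56%, median 0.14). Of 40 nuclear pore and transport genes 1 was higher and 1 lower, of 39 chromatin remodelling genes 1 was higher and 1 lower, of 50 endocytosis genes 0 were higher and 2 lower, and of 11 subunits of the CCT chaperonin and prefoldin 0 passed. The ribosomal protein genes had a median mean count of 42.0, above the 27.5 of all tested genes. The SD between replicates of the list's median log2 value was 0.22, beside 0.11 for the stress response list. It measures the spread of the list's median and not that of single genes. Members that did not pass the test are not thereby shown to be unaffected.

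The tested opposite-strand partners of the lists were counted as well, a readout chosen after seeing the data. No test was made of a difference between partners and lists. Lists with more partners higher than lower are given first. The 7 partners of proteasome subunits were higher in 5 and lower in 0, with medians of 0.51 (12-HETE) and 0.56 (ADAR1 p150). The 20 partners of actin cytoskeleton genes were higher in 9 and lower in 0, with medians of 0.10 and 0.23. In the next lists given here, the medians of the partners lay far apart between the treatments. The 15 partners of splicing factors were higher in 7 and lower in 0 in the pooled test, with medians of 0.61 with 12-HETE and 0.05 with ADAR1 p150. The 28 partners of endocytosis genes were higher in 9 and lower in 1, with medians of -0.01 and 0.49. The 15 partners of G1/S and DNA replication genes were higher in 5 and lower in 0, with medians of 0.63 and -0.19. Other lists went otherwise. The 15 partners of lysosome genes were higher in 0 and lower in 5, and the 47 partners of Zfp genes were higher in 6 and lower in 7. The share of genes with a partner that passed the adjusted p was 25.5% (560 higher and 420 lower of 3849), against 18.8% of genes without a partner. The median mean count of genes with a partner was 38.8 against 20.8, so the groups also differed in depth, and its part was not tested.

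A larger share of long non-coding RNAs than of protein-coding genes passed the pooled test. Of 4907 protein-coding genes, 494 were higher and 445 lower (19.1%), of 1601 long non-coding RNAs 294 were higher and 222 lower (32.2%), and of 292 pseudogenes 49 were higher and 19 lower (23.3%). The share also rose with depth, from 15.1% where genes averaged 10 to 20 counts to 40.8% at 200 and above, and the median mean count was 56.0 for long non-coding RNAs and 24.0 for protein-coding genes. At mean counts of 50 to 200 the shares were 34.2% and 27.9%. Of 69 transcripts named as opposite-strand or antisense, 16 were higher and 9 lower (36.2%), of 1574 predicted Gm transcripts 283 and 190 (30.1%), and of 333 Rik transcripts 43 and 49 (27.6%). Of 18 microRNA genes, 1 was higher and 3 lower (22.2%), and 0 of the small nucleolar RNAs reached the count minimum.

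Rbm3os, on chromosome X opposite the cold-inducible RNA-binding protein gene Rbm3, had 298 and 368 counts in the vehicle pair, 941 and 873 in the 12-HETE pair, 333 and 286 in the vector pair and 666 and 785 in the ADAR1 p150 pair (log2 fold change 1.10, SE 0.13, adjusted p = 1.78e-05), and Rbm3 had at most 38 counts (log2 fold change 0.93, adjusted p = 0.0575, which was 0.0411 without vehicle replicate 5 and 0.0362 without 12-HETE replicate 5). Ino80dos rose by 0.75 (SE 0.14), and its partner Ndufs1, a subunit of respiratory complex I, rose from 9 and 12, and 10 and 13, counts in the controls to 39 and 34, and 34 and 43, in the treated samples (log2 fold change 1.52, adjusted p = 0.000345). Tnk2os fell by 0.89 (SE 0.13), and its partner Tnk2, a non-receptor tyrosine kinase, had a log2 fold change of -1.01 (adjusted p = 0.0346, and 0.0632 to 0.0912 when any 1 sample other than vehicle replicate 4 and 12-HETE replicate 5 was left out). Grin1os had 42 and 33 counts with ADAR1 p150 and at most 3 in the other 6 samples, so its pooled value of 2.90 came from a single experiment. In the first 3 of these pairs, gene and partner had the same sign. Among Rik transcripts, 4930471E19Rik fell by 2.95 (SE 0.26).

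In several families the medians differed in sign between the treatments, with the interaction tested gene by gene only. Replication-dependent core histones, which are made in the replication phase of the cell cycle and lack poly(A) tails, had median log2 fold changes of 0.27 (12-HETE) and -1.34 (ADAR1 p150) over 24 genes, and the interaction passed in 7 of them, while the pooled test called 1 higher and 3 lower at the adjusted p. Replicates of the controls lay far apart among those that were lower. H2bc9 had 81 and 4 counts in the vehicle pair and 105 and 1 in the vector pair, and H3c11 had 6 and 8, and 4 and 87. Without vector replicate 1 the pooled log2 fold change of H2bc9 was -1.58 (adjusted p = 0.156) in place of -2.82 (adjusted p = 0.029), without vehicle replicate 4 its adjusted p was 0.157, and without 12-HETE replicate 5 or either ADAR1 p150 sample it was 0.0549 to 0.084. Without vector replicate 2 that of H3c11 was -0.92 (adjusted p = 0.25) in place of -2.99 (adjusted p = 0.0147), and without either ADAR1 p150 sample its adjusted p was 0.0616 to 0.083. The SD between replicates of the median over the 24 genes was 0.37 on the log2 scale, which is not the spread of single genes. Linker and variant histones had medians of 0.11 and -0.86 over 12 genes. Hypoxia target genes had -0.30 and 0.73 over 16 genes, with the interaction past the adjusted p in 6. Glycolysis genes were positive with both treatments, with medians of 0.33 and 0.63 and 0 negative values among 16 genes in the pooled test, although only 3 passed it. Pkm, the pyruvate kinase gene, had 308 and 406 counts in the vehicle pair, 578 and 519 in the 12-HETE pair, 233 and 273 in the vector pair and 722 and 466 in the ADAR1 p150 pair (log2 fold change 0.68, SE 0.15, adjusted p = 0.00377).

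**Figure D5:**
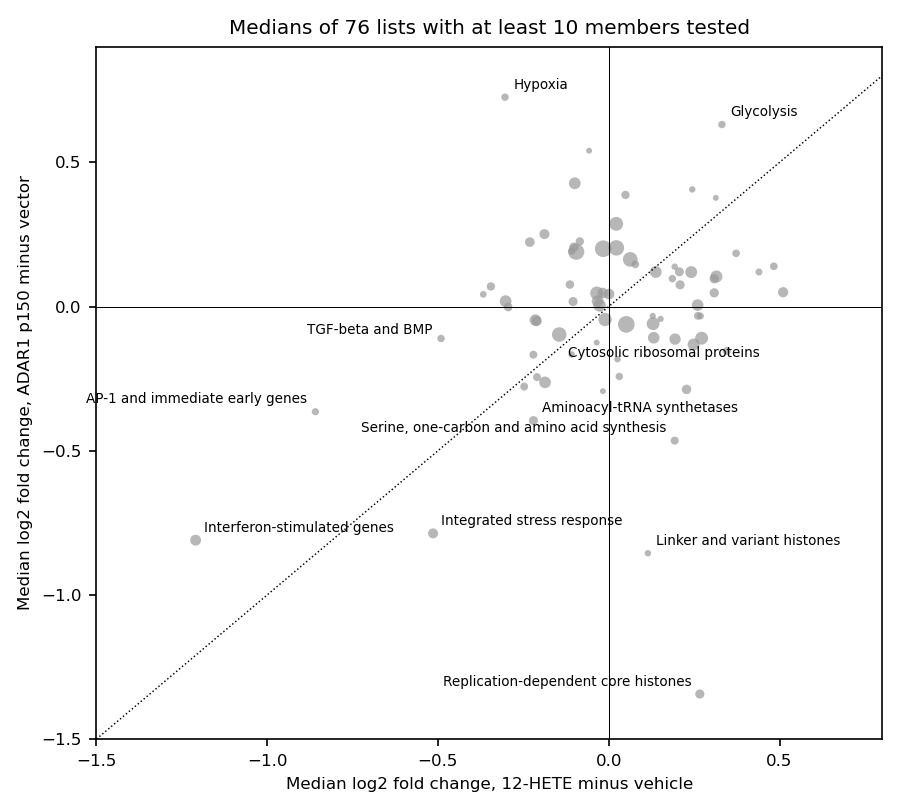
Median log2 fold change of each of 76 lists with 12-HETE (horizontal) and with ADAR1 p150 (vertical), with point size by the number of members tested up to 80 and a dotted line where both are equal. The interferon-stimulated genes (-1.21 and -0.81) and the integrated stress response (-0.51 and -0.79) lie low on both axes, and the replication-dependent core histones (0.27 and -1.34) only on the vertical axis.

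Opposite effects that each passed the adjusted p were found in 110 genes, 85 of which averaged at least 50 counts. Acap1, which regulates Arf GTPases in recycling endosomes, had 38 and 37 counts in the vehicle pair, 21 and 25 in the 12-HETE pair, 24 and 43 in the vector pair and 561 and 572 in the ADAR1 p150 pair (log2 fold changes of -0.89 and 3.79). Gm30541 had 70 and 74, 16 and 25, 83 and 107, and 343 and 357 counts, Gm51671 had 531 and 506, 271 and 273, 467 and 492, and 867 and 894, and Usp24, a deubiquitinase, had 606 and 554, 1397 and 1263, 568 and 590, and 490 and 448. Gm30541 and Gm51671 thus fell with 12-HETE and rose with ADAR1 p150, and Usp24 did the reverse. Over all genes, the ADAR1 p150 effect was above the 12-HETE effect in 572 genes and below it in 461 at the adjusted p.

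The shared changes were uneven along the genome. On chromosome X, 33 genes were higher and 4 lower of 93 tested (median 0.50), and on chromosome 1, 97 were higher and 23 lower of 455 (median 0.31). On chromosome 12, 7 were higher and 61 lower of 214 (median -0.33), and on chromosome 19, 11 were higher and 50 lower of 276 (median -0.25). Each of these medians had the same sign in both experiments: 0.47 and 0.50 for chromosome X, 0.16 and 0.30 for chromosome 1, -0.42 and -0.33 for chromosome 12, and -0.36 and -0.22 for chromosome 19. Usp37 (1.44, SE 0.22), a deubiquitinase, lies on chromosome 1, and Kif4, Tsix, Xist, Gm52421 and Rbm3os lie on chromosome X. Subtracting the chromosome medians left the stress response and AP-1 lists at -0.59 and -0.79, and moved fatty acid metabolism to 0.06.

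Tfrc, the transferrin receptor, which brings iron into cells, had 5 and 3 counts in the vehicle pair, 37 and 27 in the 12-HETE pair, 2 and 1 in the vector pair and 12 and 6 in the ADAR1 p150 pair (log2 fold change 2.61, SE 0.39, adjusted p = 0.000193), and it led the oxidative stress list. The mitochondrial ribosomal RNA mt-Rnr2 fell by 2.19 (SE 0.36, adjusted p = 0.000446), with 189 and 351 counts in the vehicle pair, 33 and 138 in the 12-HETE pair, 107 and 249 in the vector pair and 32 and 36 in the ADAR1 p150 pair. Its replicates lay far apart, and the higher 12-HETE sample lay above the lower vector sample. Of 17 mitochondrial ribosomal proteins, 3 were higher and 2 lower (29.4%), and Mrps25, at 773 and 791, 620 and 634, 830 and 861, and 671 and 707 counts, fell by 0.55 (SE 0.10) while its partner Nr2c2 rose by 1.14 (adjusted p = 0.000182).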

How the data were processed

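The authors deposited raw counts per gene, unnormalised, for the 8 EO771 libraries, 2 in each of the 4 groups. In the study's methods, Trizol RNA was made into directional libraries and sequenced in pairs, FastQC served for quality, prinseq for removal of duplicate reads, STAR for alignment against the GRCm38 genome and featureCounts for counting. The sample labels name another extraction and library kit, and the strand setting is not given in the sources used here. The depth of 1101767 to 1537037 counts per sample limits the precision of low genes.

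Genes averaging at least 10 counts were fitted in edgeR 4.0.16 (limma 3.58.1, R 4.3.3) with TMM factors and the quasi-likelihood F test, with terms for experiment and treatment, with Benjamini-Hochberg adjustment over all 6901 genes. Effects within an experiment and the interaction came from a fit with a mean for each of the 4 groups. Calls needed a 2-fold change and an adjusted p under 0.05, members of lists were counted at the adjusted p alone, and the SE is the size of the log2 fold change divided by the square root of F. Positions, strands and promoters came from RefSeq GRCm38.p6, with GENCODE for strands that RefSeq's promoter table lacked, and 88.8% of symbols had a strand, and overlaps needed 50 bases. Named genes were the 12 highest and 12 lowest called genes that averaged at least 50 counts, separated all treated samples from the controls and were not on the interferon list, up to 4 members of each described list with the smallest p, the 4 genes with the smallest interaction p among opposite effects, and Adar. Chosen after their values were seen were the partners and Xist, Kif4, Kif24, Dync1h1, Tuba1c, Ccnd1, LTO1, Pkm, Tfrc, Usp37, mt-Rnr2, Slc38a2, Slc3a2, Fosl1, Cd274, Atf4, Ddit3, Wars, Aars, Eif2ak1, H2bc9 and H3c11. Asns, Gars and Tars were named for their promoters, also after their values were seen. Members and lists were chosen with earlier results of these data known.

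In simulated data with 6901 genes, the pooled test recovered 196 of 200 genes changed 4-fold alike in both experiments and called 5 others. With no change it called 1 gene. Genes changed in a single experiment, or by less than 4-fold, were not simulated. The alternatives were DESeq2 1.42.0, RLE factors, leaving out the most abundant gene, other count minimums, other models, each experiment alone, thinned counts, a replicate block, adjusted p alone and leaving out each library. The crossed replicate block, chromosome medians and the readouts by partner were chosen after seeing the data. Lists were described by counts and medians, with no test. Some genes that the rule names are not reported here.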

Additional observations from a re-analysis of the deposited data

Results flagged for a closer look

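Samples that stood apart from the other 3 of their arm were looked for in 218 groups of 4 samples, by the gap to the nearest sample as a share of the whole range (above Dixon's 95% critical value for 4 samples), which chance passes in about 1 in 20 groups. It was passed in 8. The controls of Ifi27l2a (vector replicate 1, gap 0.966 of the range), Tsix (vehicle replicate 4, 0.885), Gm51915 (vehicle replicate 5, 0.866), Usp24 (vehicle replicate 5, 0.944) and H3c11 (vector replicate 2, 0.959) each held such a sample. So did the treated samples of Fosl1 (ADAR1 p150 replicate 2, 0.861), Il17d (ADAR1 p150 replicate 1, 0.891) and mt-Rnr2 (12-HETE replicate 5, 0.943). For mt-Rnr2 that sample was at 106 CPM, above the other 3 treated samples.

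The effect of ADAR1 p150 differed from that of 12-HETE by the interaction test of edgeR (adjusted p under 0.05) in 23 of the 109 genes compared, beside 1033 of all 6901 genes (15.0%). The 109 genes included Adar and the 4 chosen for opposite effects, so the 2 counts are not alike. Values are the ADAR1 p150 effect minus the 12-HETE effect on the log2 scale. Among genes that fell with both treatments (adjusted p under 0.05 in each), the difference was positive, a smaller fall under ADAR1 p150, in Ifi27l2a (1.13), LOC115490439 (2.13), D930030F02Rik (2.21), Gm44148 (0.65), Krtap5-5 (1.79), Trpm1 (1.93), Gm51915 (1.57), Axl (1.65), Cd274 (1.89) and A930037H05Rik (0.43). It was negative, a larger fall under ADAR1 p150, in Atf4 (-1.62), Ddit3 (-1.17), Ccdc85b (-0.98) and 1700034H15Rik (-0.96), where Ddit3 did not pass with 12-HETE alone. Among genes that rose, it was 0.53 in Tsix, -0.50 in Ino80dos and -0.63 in 1700020L24Rik. It was -0.83 in Eif2ak1, which rose with 12-HETE and did not pass with ADAR1 p150. The overexpressed gene Adar had 4.49. The genes chosen for opposite effects had differences of 4.68 in Acap1, 3.58 in Gm30541, 1.71 in Gm51671 and -1.60 in Usp24, values that describe how they were chosen. The 2 effects come from separate experiments, so the experiment and the treatment cannot be told apart in these differences.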

How the results depend on the processing

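The pooled test called 356 genes higher and 334 lower. With at least 10 counts in every library, a filter that removes genes that are low in either arm, the counts were 134 and 140. With no minimum 534 genes were higher and 737 lower, in the 12-HETE experiment alone 640 were lower, and with the adjusted p alone there were 851 higher and 703 lower. DESeq2 gave 241 and 328, RLE factors 325 and 364, and leaving out the most abundant gene 310 and 377. The interaction had 424 genes higher and 151 lower, which DESeq2 moved to 176 and 78, and 461 were lower with the adjusted p alone.

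Leaving out each library gave 302 to 366 higher and 304 to 354 lower genes in the pooled test, 328 to 393 and 123 to 162 for the interaction, 303 to 432 and 501 to 580 for 12-HETE, and 453 to 564 and 256 to 367 for ADAR1 p150. Deviations of same-numbered samples correlated at -0.0798 and -0.114. These values gave no sign of pairing, but a single value for each experiment cannot show that the samples were unpaired. With a replicate block 295 genes were higher and 304 lower, and with the numbers crossed in the ADAR1 p150 experiment 311 and 313, an alternative chosen after seeing the data. Of 105 named genes compared, 86 kept their direction and their side of the threshold under every alternative in which they were fitted, and 0 changed sign. Many of these genes were chosen by their pooled values in the same samples, so the counts are a description and no separate support. Only 69 of the 105 could be compared with at least 10 counts in every library, because that filter removed the others. With the replicate block, Aars (adjusted p = 0.063, edgeR), Ccnd1, Cebpg, Eif2ak1, Tnk2 and Usp18 lost their calls. Adar lost its call under DESeq2 (adjusted p = 0.06) and in the 12-HETE experiment alone (adjusted p = 0.879, edgeR). The cause of these differences was not tested. Depth limits low genes, since 3 counts were 2.11 to 2.74 CPM.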
